A study of Mus musculus with 10 samples.

Results

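Gene-level RNA counts of 54 subunit genes of respiratory complexes II to V and cytochrome c, among 39769 gene symbols measured, were compared between 10 mouse libraries labelled cerebellum or medulloblastoma, which is a cerebellar tumour. The genes were taken by symbol: Sdha to Sdhd, all Uqcr, Cox4 to Cox8 and Atp5 symbols, Cyc1, Cycs and the 6 mitochondrially encoded subunits of these complexes, each with at least 10 counts in 3 or more libraries. Of 56 symbols that matched, Cox7c-ps1 was left out as a pseudogene symbol and Cox8c because no library had 10 counts. The 54 genes were 4 of complex II, 10 of complex III, cytochrome c, 20 of complex IV and 19 of complex V, with 48 in the nuclear and 6 in the mitochondrial genome. All mice carried Ptch+/-, the loss of 1 copy of Ptch1, a receptor that restrains Sonic hedgehog signalling. The 3 AKP libraries were labelled medulloblastoma with AtohI-Cre (as the label spells it) and Kmt2dfl/+. Mice were 2 months old for AKP 1 and AKP 2 and 4 months old for AKP 3. The 3 NKP libraries were labelled medulloblastoma with Nestin-Cre and Kmt2dfl/+, all at 4 months. The 4 Ptch libraries were labelled control cerebellum with Ptch+/- and neither Cre nor floxed allele named, from mice 4 months old for Ptch 1 and Ptch 2 and 2 months old for Ptch 3 and Ptch 4. The Atoh1 promoter is active in granule neuron precursors and the Nestin promoter in neural progenitors more widely, and Kmt2d encodes a histone H3 lysine 4 methyltransferase. The series states that the AKP and NKP samples were cerebella bearing tumour, so the share of tumour cells in each library is not known.

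The respiratory chain passes electrons from succinate and other fuels to oxygen and stores the energy as a proton gradient across the inner mitochondrial membrane. Complex II (succinate dehydrogenase) feeds electrons to ubiquinone, complex III passes them to cytochrome c, complex IV (cytochrome c oxidase) reduces oxygen, and complex V (ATP synthase) uses the gradient to make ATP. Granule neuron precursors in the developing cerebellum are known for glycolytic metabolism, and mature cerebellar neurons for reliance on oxidative phosphorylation.

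Names of groups and libraries below follow the labels, some of which the data went against. Total counts were 12300430 in Ptch 1, the lowest, to 19348991 in Ptch 3, the highest. Kmt2d, the floxed gene, was at 34.3, 41.3 and 43.6 CPM (counts scaled to a common library size) in AKP 1 to 3, at 33.2, 46.9 and 58.0 CPM in NKP 1 to 3, and at 68.4, 57.3, 56.3 and 52.6 CPM in Ptch 1 to 4, so the library labelled NKP 3 lay within the Ptch range. The level of Y-linked transcripts went against the sex label in AKP 3, NKP 3, Ptch 1 and Ptch 3. NKP 2, which was not among these, had both the X-linked Xist (74.8 CPM) and Y-linked transcripts (68.4 CPM). Mki67, a proliferation gene, was at 0.575, 49.1 and 38.8 CPM in AKP 1 to 3, at 0.654, 0.719 and 11.8 CPM in NKP 1 to 3, and at 84.1, 80.4, 28.8 and 27.3 CPM in Ptch 1 to 4. It was thus lowest in 3 libraries labelled tumour and highest in 2 labelled control. No pair of libraries agreed within sampling noise. The smallest chi-square per degree of freedom was 3.31, for Ptch 3 and Ptch 4, and Ptch 1 and Ptch 2 had 3.51. Across groups, AKP 1 and NKP 1 had 3.54, and NKP 3 had 3.85 with Ptch 4 and 5.41 with Ptch 3. Several pairs within a group were further apart. NKP 3 had 17.1 and 15.4 with NKP 1 and NKP 2, and AKP 1 had 38.5 and 19.3 with AKP 2 and AKP 3. Ptch 1 and Ptch 2 had 26.7 to 29.2 with Ptch 3 and Ptch 4, while AKP 2 and AKP 3 had 8.79. In bulk RNA, fewer cells of a type and less RNA per cell cannot be told apart. Separate animals are not stated in the labels, so the tests gauge differences against the spread among the libraries of a group, which may be technical.

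Summed over the 48 nuclear genes, the level was higher in AKP than in Ptch libraries, at 18825 ± 1127 CPM in AKP, 16299 ± 2282 in NKP and 13827 ± 525 in Ptch (SD, n = 3, 3 and 4). The 3 AKP libraries and NKP 1 lay at 17730.0 to 19981 CPM. NKP 2 and NKP 3 had 15485 and 14534 CPM, and the Ptch libraries had 13331 to 14449 CPM. The 6 mitochondrially encoded genes gave 81614 ± 9174 CPM in AKP, 82470 ± 8720.0 in NKP and 61842 ± 12363 in Ptch (SD, n = 3, 3 and 4), and here Ptch 1 and Ptch 2, at 49175 and 53311 CPM, were the lowest. All 54 genes together made up 6.60% of the counts in Ptch 1, the smallest share, and 10.5% in AKP 1, the largest.

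**Figure D1:**
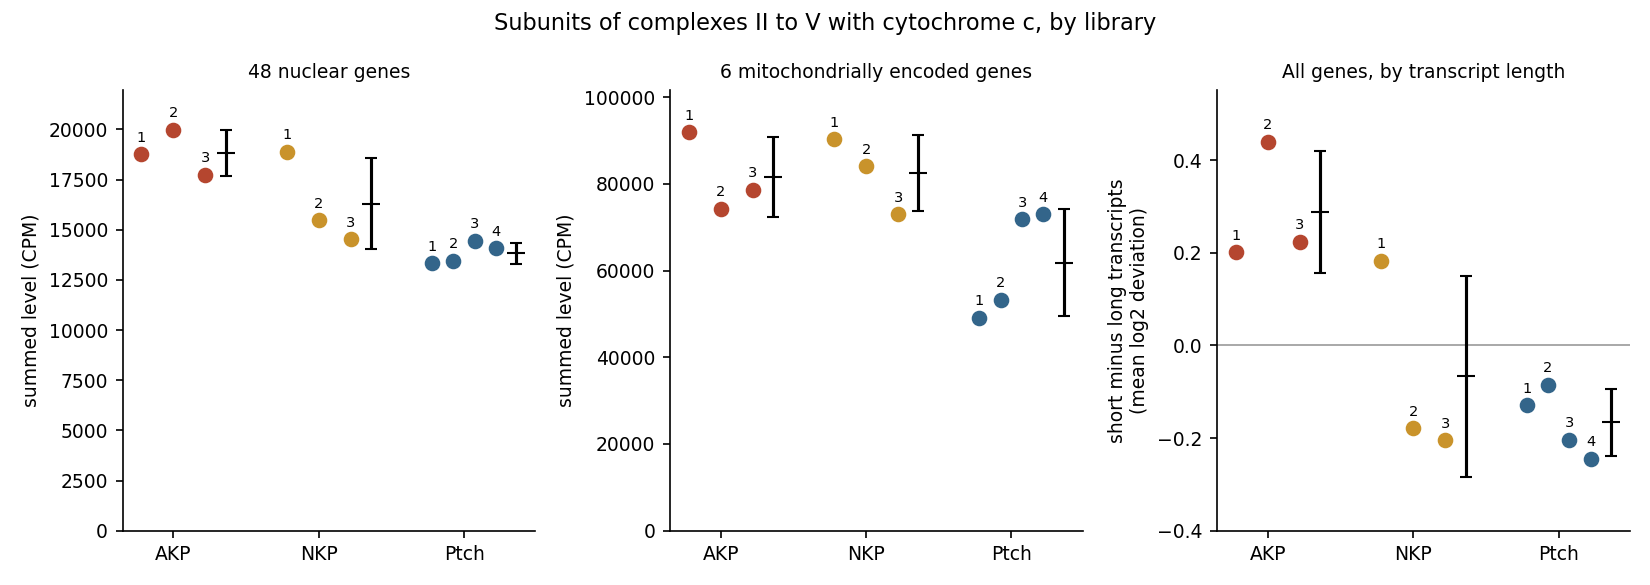
Summed level of the 48 nuclear genes (left) and the 6 mitochondrially encoded genes (middle) in CPM, and mean log2 deviation of genes with short minus genes with long transcripts over all genes (right), one numbered point per library with the group mean and SD beside it (n = 3 AKP, 3 NKP, 4 Ptch). AKP 1 to 3 and NKP 1 had the 4 highest nuclear sums and the 4 positive length contrasts.

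The same 4 libraries stood apart in a measure over all genes. There, the 3026 genes with the shortest transcripts (1675 nt or less) against the 3025 with the longest (4932 nt or more) deviated from their means over the libraries by 0.201, 0.439 and 0.224 on the log2 scale in AKP 1 to 3, by 0.183, -0.179 and -0.205 in NKP 1 to 3, and by -0.129, -0.0847, -0.204 and -0.245 in Ptch 1 to 4. Short transcripts were thus relatively high in AKP 1 to 3 and NKP 1 and in no other library.

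Marker lists of other cell types also differed between libraries. The summed level of 5 red blood cell genes was 1740 to 2232 CPM in AKP, 780.1 to 2483 CPM in NKP and 710.0 to 814 CPM in Ptch, with NKP 1 the highest of all. That of 10 oligodendrocyte genes was 11375, 9090.3 and 9085 CPM in AKP 1 to 3, 12624, 9076 and 7801 CPM in NKP 1 to 3, and 6221 to 7594 CPM in Ptch, so that NKP 2 lay close to AKP 2 and AKP 3. In AKP against Ptch, 3 of the 5 red blood cell genes and 1 of the 10 oligodendrocyte genes rose by edgeR, beside 3.38% of all genes tested. DESeq2 called 5 and 6 of them higher, beside 12.4% of all genes called in either direction, and with the length and GC correction described below 0 of either list passed in edgeR, with 5 and 8 at an unadjusted p below 0.05. A list of 10 proliferation and granule neuron precursor genes summed to 81.9, 408 and 354 CPM in AKP 1 to 3, 95.2, 82.9 and 169 CPM in NKP 1 to 3, and 596, 626, 273 and 254 CPM in Ptch 1 to 4. AKP 1 thus lay with NKP 1 and NKP 2, and AKP 2 and AKP 3 lay within the Ptch range. In AKP against Ptch 0 of the 10 were called by edgeR or DESeq2 and 1 had an unadjusted p below 0.05 (median log2 fold change -0.65). In NKP against Ptch edgeR called 0 of the 10, with 9 at an unadjusted p below 0.05 and a median of -2.75, and DESeq2 called 5 lower. Log2 fold changes in NKP against Ptch were above 0 for 8 of 8 endothelial genes (median 0.45, 7 at an unadjusted p below 0.05), 8 of 8 Purkinje cell genes (0.42, with 2), 10 of 10 mature granule neuron genes (0.25, with 2) and 10 of 10 oligodendrocyte genes (0.50, with 9), with 0 of these called by edgeR and 2, 1, 0 and 5 by DESeq2 in that order. They were above 0 for 5 of 8 astrocyte and Bergmann glia genes, 1 of 8 microglia genes and 5 of 6 choroid plexus genes. Over all 15617 genes tested by edgeR, 2660 had an unadjusted p below 0.05 in NKP against Ptch and 3916 in AKP against Ptch. The Purkinje cell and mature granule neuron counts at that threshold were near the share of all genes. DESeq2 called 2.6% of all genes in NKP against Ptch, in either direction. In AKP against Ptch the medians were 0.11 for the endothelial, 0.11 for the Purkinje cell and 0.03 for the mature granule neuron list. In that order edgeR called 1 of 8, 1 of 8 and 0 of 10 higher, beside 3.38% of all genes, and DESeq2 called 2, 1 and 0. At an unadjusted p below 0.05 in edgeR there were 3, 3 and 1. No gene of these cell type lists was at 0 in every library. The part that these cell types had in the results below was not tested.

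In AKP against Ptch, 32 of the 53 subunit genes tested rose and 0 fell at a Benjamini-Hochberg adjusted p below 0.05 (edgeR quasi-likelihood F test), beside 3.38% of all 15617 genes tested that rose and 2.3% that fell (5.68% in all). All 53 had a log2 fold change above 0, with a median of 0.50, against -0.02 over all genes tested. For 46 of the 54 genes all 3 AKP libraries lay above all 4 Ptch libraries, beside 12.9% of all genes tested, and for 0 they lay below, beside 12%. By complex, 3 of 4 tested genes rose in complex II, 5 of 10 in complex III, cytochrome c, 11 of 19 in complex IV and 12 of 19 in complex V. All 32 were nuclear, and their log2 fold changes were small, with the nuclear genes at a median of 0.52. The count rested on single libraries, as did that over all genes. It was 0 without AKP 2, AKP 3, Ptch 1 or Ptch 2, where 1, 0, 1 and 1 of all genes were called in that order. It was 14 without Ptch 4 and 18 without Ptch 3, beside 1.18% and 2.07% of all genes called. The median stayed between 0.46 and 0.54 with any 1 library left out. In libraries of 2 months of age alone (AKP 1 and AKP 2 against Ptch 3 and Ptch 4) 0 subunit genes and 0 genes in all passed, with a median of 0.46. Without Ptch 1 and Ptch 2 both counts were again 0, with a median of 0.43.

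**Figure D2:**
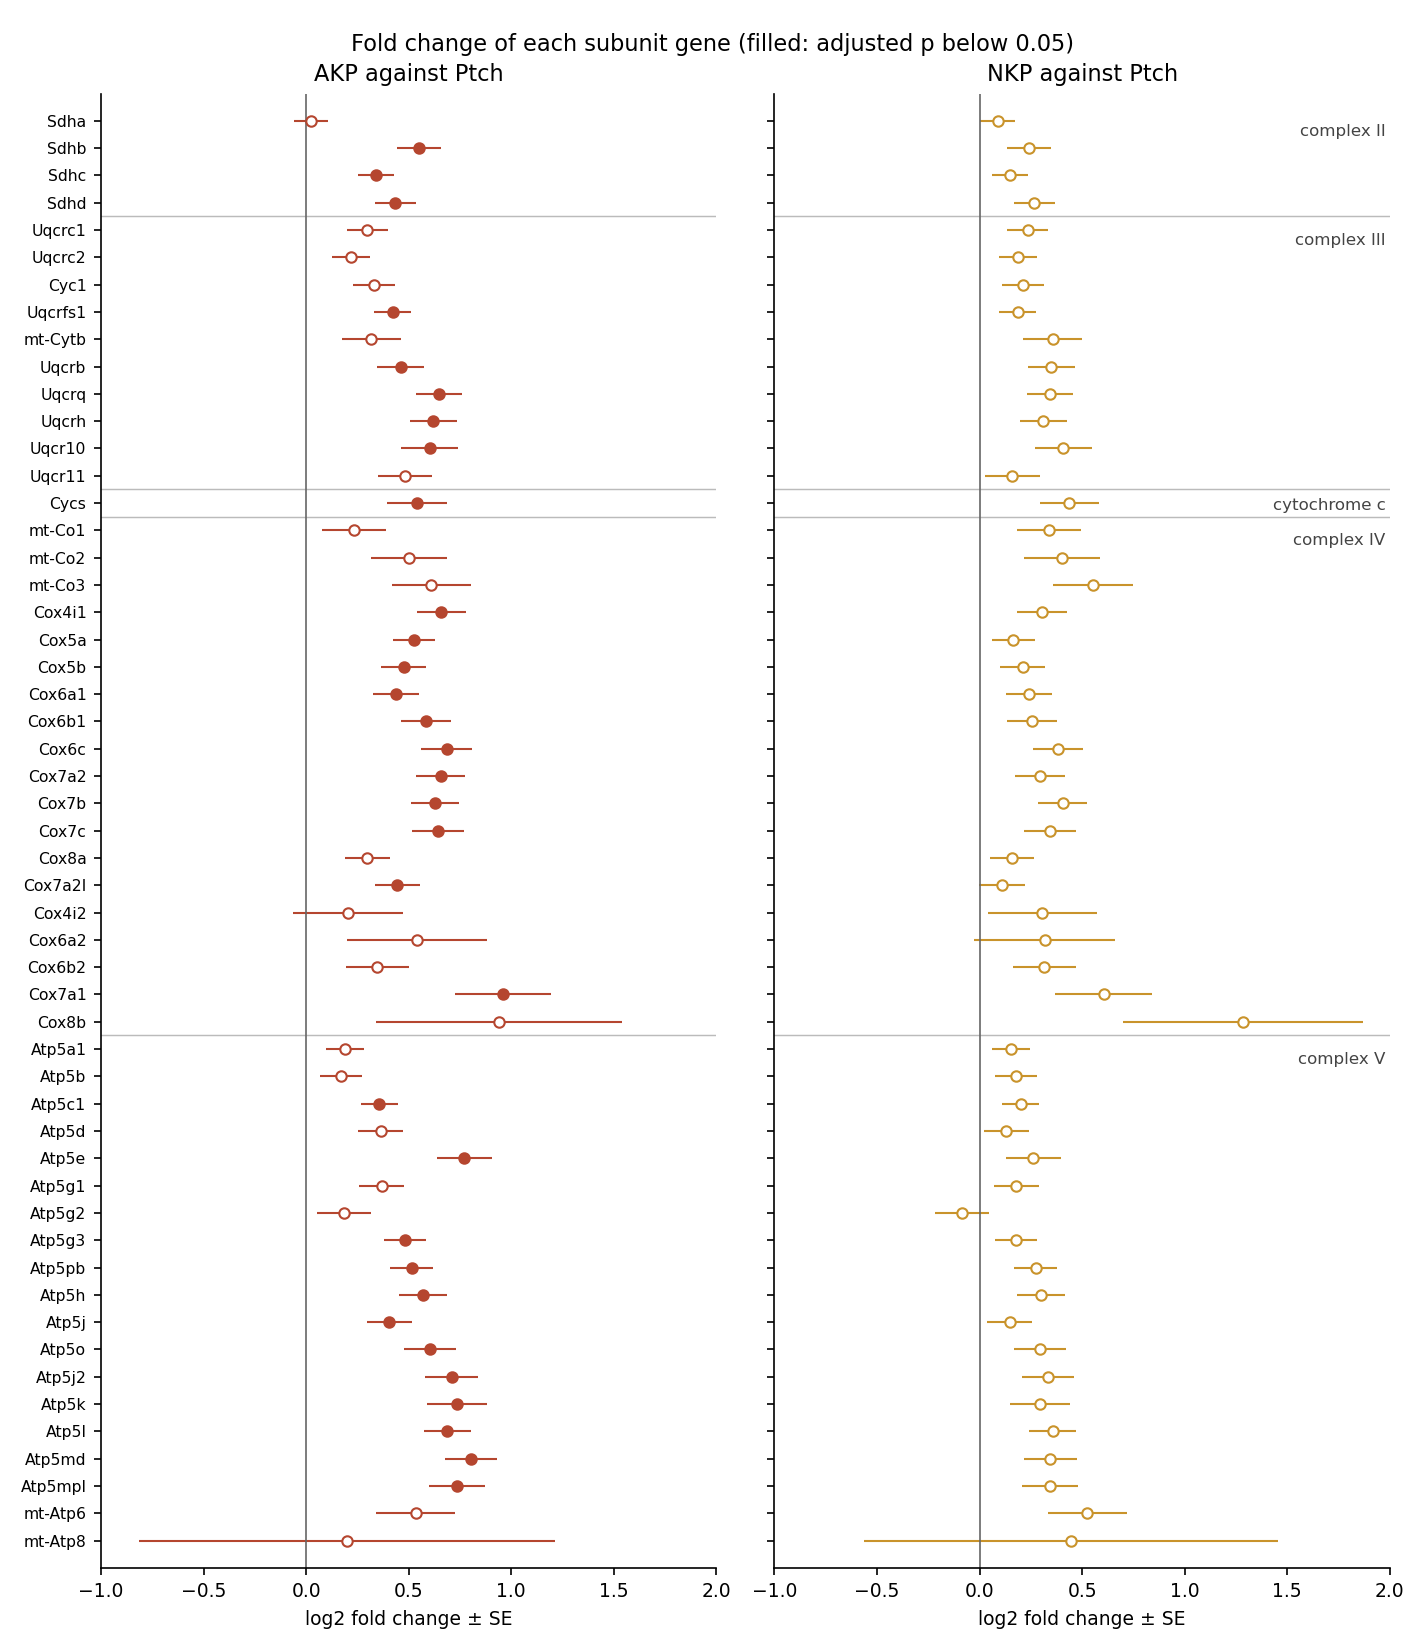
Log2 fold change of each of the 53 tested subunit genes (points, bars ± SE) in AKP against Ptch (left) and NKP against Ptch (right), grouped by complex, with filled points for adjusted p below 0.05. Every point of the AKP comparison lies above 0 and 32 are filled, while none is filled in the NKP comparison, which shares the 4 Ptch libraries.

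Transcript length moved with these fold changes. Of the 28 nuclear subunit genes whose principal transcript is shorter than 1000 nt, 21 rose in AKP against Ptch (median log2 fold change 0.59). Of the 19 longer ones, 11 rose, with a median of 0.37. Across the 47 tested nuclear genes, Spearman's rho between length and log2 fold change was -0.50, a description over genes that share the same libraries. When each library's trend over all genes with GC content and the length of the longest annotated transcript was removed, 0 subunit genes passed, the median was 0.18 in AKP against Ptch, and 43 of 53 genes kept a log2 fold change above 0. Under that correction only 14 of all genes passed. The smallest adjusted p among the subunit genes was then 0.0507, reached by Atp5e (0.59), Atp5j2 (0.60), Atp5md (0.70) and Cox6c (0.66). For 3 of these 4 the longest transcript is far longer than the principal one, for example 1697 against 421 nt in Atp5e and 3038 against 738 nt in Cox6c. For Atp5md both are 2733 nt, so its length was the same in either correction. Per kb of that length Atp5md averaged 94.4 CPM, against 287 to 637 CPM for Atp5mpl, Atp5j2, Atp5k and Atp5l. Whether its RNA in these libraries has that length was not tested. With principal transcripts in the correction the log2 differences were 0.31 for Atp5e, 0.40 for Atp5j2, 0.73 for Atp5md and 0.31 for Cox6c (adjusted p = 0.0823, 0.0816, 0.0567 and 0.129), and the median over the subunit genes was 0.19. How much of the rise in AKP belongs to transcript length cannot be told apart from the groups, since all 3 AKP libraries had the same direction of trend.

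**Figure D3:**
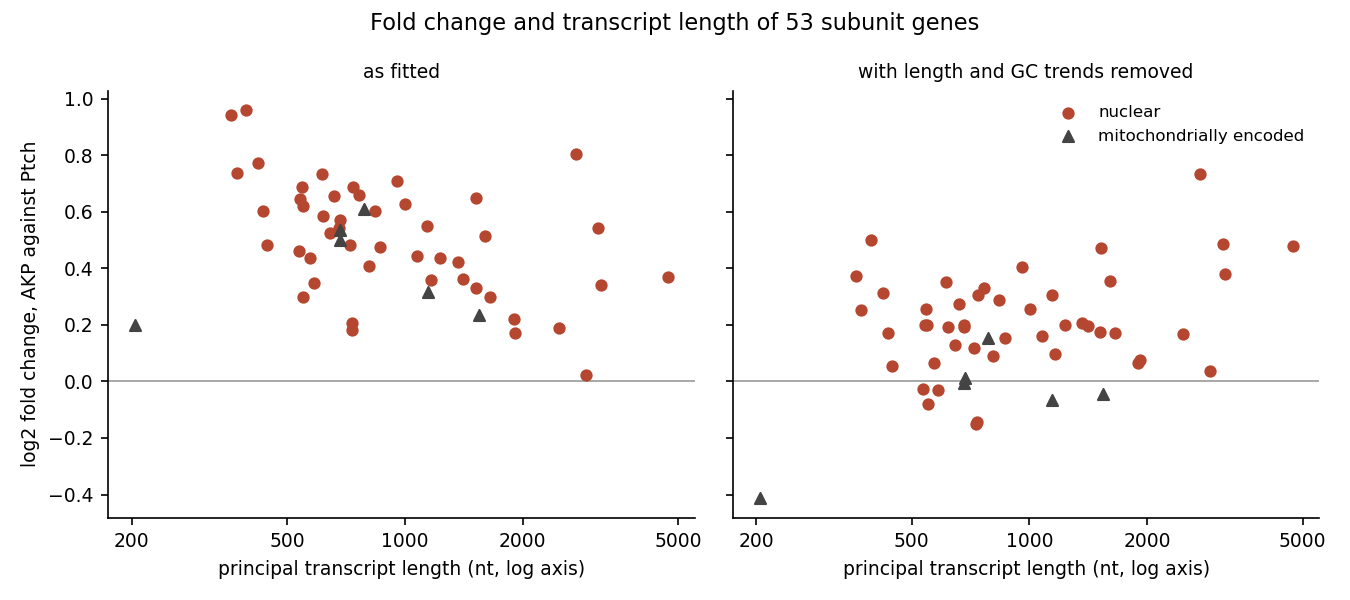
Log2 fold change in AKP against Ptch of 53 subunit genes against the length of their principal transcript (nt, log axis), as fitted (left) and with each library's principal-transcript length and GC trends removed (right), circles nuclear and triangles mitochondrially encoded. At left the points fall with length (rho -0.50 over the nuclear genes), with Atp5md (0.80, annotated at 2733 nt) above the others of that annotated length. At right the nuclear genes centre near 0.2.

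The promoters of the nuclear genes were examined for letters of 3 factors known to bind many respiratory genes. In the 250 bases before the start, available for 37 of the 48 nuclear genes, the NRF1 letters, GCGC, any base and TGCGC (either strand), occurred in 7 genes (18.9%), against 5.84% of 17492 protein-coding genes. The ETS letters CCGGAAG, the core bound by GABP (either strand), occurred in 9 (24.3%) against 10.2%, and the YY1 letters AAGATGGC in 1 (2.7%) against 1.77%. Sdha, Sdhd, Cox6a1 and Atp5h are shown because Sdha, which did not rise, and the other 3, which rose in AKP, all held NRF1 letters. The stretches run 5′ to 3′ on the transcribed strand (RefSeq, GRCm38.p6), at chr13:74350241-74350353, chr9:50603874-50603943, chr5:115348959-115349135 and chr11:115419936-115420075, all on the minus strand, with capitals marking NRF1 letters and, as CTTCCGG, the reverse complement of the ETS letters.
Sdha: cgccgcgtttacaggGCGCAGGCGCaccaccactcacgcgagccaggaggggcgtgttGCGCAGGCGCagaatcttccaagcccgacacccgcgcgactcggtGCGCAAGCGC
Sdhd: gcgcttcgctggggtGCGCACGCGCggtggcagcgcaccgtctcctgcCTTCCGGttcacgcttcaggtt
Cox6a1: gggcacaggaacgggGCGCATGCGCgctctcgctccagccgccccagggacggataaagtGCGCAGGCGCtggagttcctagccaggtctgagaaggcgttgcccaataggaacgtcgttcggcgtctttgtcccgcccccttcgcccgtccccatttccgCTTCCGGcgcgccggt
Atp5h: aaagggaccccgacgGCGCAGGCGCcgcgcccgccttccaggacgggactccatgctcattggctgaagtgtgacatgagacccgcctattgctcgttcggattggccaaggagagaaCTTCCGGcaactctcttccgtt
A match of letters is not a measured binding site. Of the genes for the factors, Nrf1 and Gabpa had log2 fold changes in AKP against Ptch of -0.06 (adjusted p = 0.810) and -0.24 (adjusted p = 0.252) by edgeR. Nrf1 and Gabpa were chosen after their values were seen, and Yy1 is not given.

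Complex II holds 4 subunits, all nuclear. The iron-sulfur subunit gene Sdhb and the membrane anchor genes Sdhc and Sdhd rose in AKP, and Sdha, the flavoprotein that oxidises succinate, did not pass. Sdhb had 258, 284 and 255 CPM in AKP 1 to 3, 254, 204 and 185 CPM in NKP 1 to 3, and 169, 181, 195 and 181 CPM in Ptch 1 to 4. All AKP libraries, NKP 1 and NKP 2 lay above the Ptch libraries, and NKP 3 lay among them. Its log2 fold change in AKP against Ptch was 0.55 (SE 0.106, edgeR adjusted p = 0.0218). Sdhd had 182, 174 and 159.9 CPM in AKP 1 to 3, 175, 155 and 129.7 CPM in NKP 1 to 3, and 127, 125, 134 and 123 CPM in Ptch 1 to 4, again with all AKP libraries above the Ptch range and NKP 3 within it (0.44 in AKP against Ptch, SE 0.0994, adjusted p = 0.0314). Sdhc rose by 0.34 (adjusted p = 0.0414). Sdha, with a principal transcript of 2900 nt, had 484, 454 and 435 CPM in AKP 1 to 3, 469, 489 and 477 CPM in NKP 1 to 3, and 434, 421, 472 and 474 CPM in Ptch 1 to 4. The groups of Sdha overlapped, and its log2 fold change in AKP against Ptch was 0.02 (95% interval -0.14 to 0.19, adjusted p = 0.896).

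Complex III passes electrons from ubiquinol to cytochrome c through cytochrome b (mt-Cytb), cytochrome c1 (Cyc1) and the Rieske iron-sulfur protein (Uqcrfs1), around 2 core proteins (Uqcrc1 and Uqcrc2) and small accessory subunits. Of the small subunit genes, 4 of 5 rose in AKP against Ptch (median log2 fold change 0.60), as did Uqcrfs1 among the 3 redox subunit genes, while neither core protein gene passed (median 0.26). Uqcrq, a small subunit that contacts cytochrome b, had 230.0, 265 and 226 CPM in AKP 1 to 3, 231, 184 and 169 CPM in NKP 1 to 3, and 141, 159, 163 and 151 CPM in Ptch 1 to 4. All 6 AKP and NKP libraries lay above all Ptch libraries, and Uqcrq rose in AKP against Ptch (0.65, SE 0.110, adjusted p = 0.0209). Uqcrh, the hinge protein that contacts cytochrome c1, had 429, 507 and 431 CPM in AKP 1 to 3, 436, 362 and 305 CPM in NKP 1 to 3, and 289, 284, 308 and 304 CPM in Ptch 1 to 4. All AKP libraries lay above the Ptch range and NKP 3 within it (0.62 in AKP against Ptch, SE 0.115, adjusted p = 0.0209). Uqcr10 (0.60), Uqcrb (0.46) and Uqcrfs1 (0.42) also rose, at adjusted p from 0.0264 to 0.0397. Uqcr11 missed the threshold (0.48, adjusted p = 0.0518), as did Cyc1 (0.33, adjusted p = 0.0706), Uqcrc1 (0.30, adjusted p = 0.0878) and Uqcrc2 (0.22, adjusted p = 0.163), although all 4 had every AKP library above every Ptch library.

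Cycs, the soluble carrier between complexes III and IV, which also acts in apoptosis, had 476, 385 and 423 CPM in AKP 1 to 3, 457, 424 and 316 CPM in NKP 1 to 3, and 244, 266, 332 and 335 CPM in Ptch 1 to 4. AKP libraries lay above all Ptch libraries, NKP 3 lay among the Ptch libraries, and Ptch 1 and Ptch 2 were lower than Ptch 3 and Ptch 4. Cycs rose in AKP against Ptch by 0.54 (SE 0.145, adjusted p = 0.0477).

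Complex IV has its catalytic core in 3 mitochondrially encoded subunits, surrounded by nuclear subunits that regulate or stabilise it. Of the 10 common nuclear subunit genes, 9 rose in AKP against Ptch, with Cox8a the exception, at a median log2 fold change of 0.61 over the 10. Cox6c had 626, 748 and 618 CPM in AKP 1 to 3, 651, 498 and 465 CPM in NKP 1 to 3, and 390.5, 382, 447 and 431 CPM in Ptch 1 to 4. Cox4i1, the subunit at which ATP binds to slow the enzyme, had 1313, 1590.1 and 1349.9 CPM in AKP 1 to 3, 1295, 1060.0 and 971 CPM in NKP 1 to 3, and 830.4, 855, 972 and 933 CPM in Ptch 1 to 4. For both genes all AKP libraries lay above the Ptch range. NKP 3 was above it for Cox6c and just within it for Cox4i1. Their log2 fold changes in AKP against Ptch were 0.69 (SE 0.123, adjusted p = 0.0209) for Cox6c and 0.66 (SE 0.119, adjusted p = 0.0209) for Cox4i1. Cox7b, a small subunit encoded on the X chromosome, had 429, 391 and 358 CPM in AKP 1 to 3, 405, 328 and 277 CPM in NKP 1 to 3, and 247, 238, 270.4 and 259 CPM in Ptch 1 to 4. All AKP and NKP libraries of Cox7b lay above all Ptch libraries (0.63 in AKP against Ptch, SE 0.119, adjusted p = 0.0211). The other common subunit genes that rose were Cox7a2 (0.66), Cox7c (0.64), Cox6b1 (0.58), Cox5a (0.53), Cox5b (0.48) and Cox6a1 (0.44), at adjusted p of at most 0.0424. Cox8a was at 471, 474 and 423 CPM in AKP 1 to 3, 496, 363 and 383 CPM in NKP 1 to 3, and 355, 380.2, 377 and 370.1 CPM in Ptch 1 to 4, a log2 difference of 0.30 in AKP against Ptch that missed the threshold (adjusted p = 0.106). Cox7a2l, a factor that joins complexes III and IV into supercomplexes, rose by 0.44 (adjusted p = 0.0385), with 242, 340.0 and 269.6 CPM in AKP 1 to 3, 244, 220.0 and 211 CPM in NKP 1 to 3, and 208, 205, 222 and 199 CPM in Ptch 1 to 4.

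Isoforms of complex IV subunits restricted to other tissues were low in every library. Cox7a1, the heart and muscle partner of Cox7a2, had 11.9, 13.3 and 11.8 CPM in AKP 1 to 3, 13.2, 8.51 and 7.34 CPM in NKP 1 to 3, and 4.00, 6.51, 7.48 and 7.23 CPM in Ptch 1 to 4. All AKP libraries and NKP 1 and NKP 2 lay above the Ptch range, and Cox7a1 rose in AKP against Ptch (0.96, SE 0.235, adjusted p = 0.0377). Per transcript length it made up 4.99% to 5.62% of the summed Cox7a1 and Cox7a2 level in AKP, 4.79% to 6.1% in NKP and 2.91% to 4.83% in Ptch. Cox6b2, the testis partner of Cox6b1, had 11.6 to 13.6 CPM in AKP, 11.4 to 12.6 CPM in NKP and 7.62 to 11.4 CPM in Ptch (0.35 in AKP against Ptch, adjusted p = 0.180). Cox4i2, the partner of Cox4i1 that prevails in lung, had 3.29 to 4.83 CPM in AKP, 3.32 to 5.56 CPM in NKP and 2.39 to 4.43 CPM in Ptch, with overlapping groups. The muscle isoform Cox6a2 (at most 3.78 CPM) and Cox8b (at most 3.17 CPM) had log2 differences of 0.54 and 0.94 in AKP against Ptch that missed the threshold (adjusted p = 0.353 and 0.356). Cox7b2, a testis isoform with 0.0634 to 0.958 CPM, did not pass the filter on low counts and was not tested. Each of Cox4i2, Cox6a2, Cox8b and Cox7b2 was at most 1.02% of the summed level of its pair per length in any library.

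Complex V consists of a catalytic head, a central stalk, a rotating c ring, a peripheral stalk and accessory subunits in the membrane. In AKP against Ptch all 5 membrane accessory subunit genes rose (median log2 fold change 0.73), as did all 4 peripheral stalk genes (median 0.54), 2 of 5 genes of the head and central stalk (median 0.36) and 1 of 3 genes for the c subunit (median 0.37). Atp5md, an accessory subunit of the ATP synthase dimer, had 308, 401 and 326 CPM in AKP 1 to 3, 307, 239.9 and 207 CPM in NKP 1 to 3, and 193, 188, 201 and 209 CPM in Ptch 1 to 4. Atp5l, subunit g of the membrane part, had 400.5, 499 and 421 CPM in AKP 1 to 3, 409, 347 and 294 CPM in NKP 1 to 3, and 268, 266, 286 and 273 CPM in Ptch 1 to 4. All AKP libraries of both genes lay above the Ptch range, with AKP 2 the highest. NKP 3 was within the range for Atp5md and above it for Atp5l. Against Ptch, Atp5md rose in AKP by 0.80 (SE 0.128, adjusted p = 0.0209) and Atp5l by 0.69 (SE 0.114, adjusted p = 0.0209). The other membrane accessory genes, Atp5k (0.74), Atp5mpl (0.73) and Atp5j2 (0.71), rose at adjusted p of at most 0.0231. The peripheral stalk genes, which hold the head still, were Atp5o (0.60), Atp5h (0.57), Atp5pb (0.52) and Atp5j (0.41), with adjusted p from 0.0231 to 0.0467.

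Among the head and central stalk genes of complex V, the small epsilon subunit gene Atp5e rose by 0.77 (SE 0.134, adjusted p = 0.0209) and the gamma subunit gene Atp5c1 by 0.36 (SE 0.0899, adjusted p = 0.0397). Atp5e had 273, 395 and 317 CPM in AKP 1 to 3, 279, 217 and 196 CPM in NKP 1 to 3, and 188, 201, 196 and 184 CPM in Ptch 1 to 4. The catalytic beta subunit gene Atp5b had 2238, 2018 and 1986 CPM in AKP 1 to 3, 2314, 1976 and 1984 CPM in NKP 1 to 3, and 1803, 1762, 1920.5 and 1905 CPM in Ptch 1 to 4. All AKP and NKP libraries of Atp5b lay above the Ptch range, but the log2 difference of 0.17 in AKP against Ptch missed the threshold (adjusted p = 0.327), as did that of the alpha subunit gene Atp5a1 (0.19, adjusted p = 0.214) and of the delta subunit gene Atp5d (0.36, adjusted p = 0.0672). The c subunit is encoded by 3 genes whose mature protein is the same. Atp5g3 had 580.4, 688 and 560.0 CPM in AKP 1 to 3, 562, 466 and 454 CPM in NKP 1 to 3, and 429.5, 433, 448 and 434 CPM in Ptch 1 to 4, and rose in AKP against Ptch (0.48, SE 0.103, adjusted p = 0.0258). Atp5g1 had 292, 293 and 272 CPM in AKP 1 to 3, 304, 218 and 231 CPM in NKP 1 to 3, and 211, 214, 234 and 226 CPM in Ptch 1 to 4, with AKP apart from Ptch but the threshold missed (0.37, adjusted p = 0.0617). Atp5g2 had 221, 259 and 221 CPM in AKP 1 to 3, 237, 161 and 184 CPM in NKP 1 to 3, and 219, 234, 189.9 and 181 CPM in Ptch 1 to 4, with overlapping groups (0.18, adjusted p = 0.418). With the length and GC trends removed, Atp5g2 was at -0.14 in AKP against Ptch (adjusted p = 0.371). Several of these genes have processed pseudogene copies elsewhere in the genome, among which RSEM divides reads by estimation.

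The 6 mitochondrially encoded genes were the most abundant of the 54 apart from mt-Atp8, and 0 of 6 passed in AKP against Ptch by edgeR (4 of 6 at an unadjusted p below 0.05 and 3 called by DESeq2, median log2 fold change 0.41). Over all 15617 genes tested, 3916 had an unadjusted p below 0.05 by edgeR and DESeq2 called 12.4%. Averaged over the libraries, mt-Co1, mt-Co3, mt-Co2, mt-Atp6 and mt-Cytb were at 18354, 17819.5, 17417, 15228 and 8052 CPM per kb, against 1459.9 CPM per kb for Cox4i1, the highest of the nuclear genes on that scale. mt-Co3, the largest difference of the 6, had 18269, 14753 and 16282 CPM in AKP 1 to 3, 17789.9, 16518 and 13040.4 CPM in NKP 1 to 3, and 7805, 9014, 13056 and 13177 CPM in Ptch 1 to 4. The AKP libraries of mt-Co3 lay above all Ptch libraries, Ptch 1 and Ptch 2 were below Ptch 3 and Ptch 4, and NKP 3 lay within the Ptch range (0.61 in AKP against Ptch, SE 0.194, adjusted p = 0.0754). The same order of the Ptch libraries was seen in mt-Atp6, the proton channel subunit of complex V, with 13777, 10292 and 11504 CPM in AKP 1 to 3, 13393, 11552 and 10413 CPM in NKP 1 to 3, and 5931, 6879.7, 9740.2 and 10217 CPM in Ptch 1 to 4 (0.53 in AKP against Ptch, adjusted p = 0.106). mt-Co2 had 15974, 12100.4 and 13335 CPM in AKP 1 to 3, 14022, 13619.7 and 11051 CPM in NKP 1 to 3, and 7166, 8393, 11711 and 11761 CPM in Ptch 1 to 4 (0.50, adjusted p = 0.115). mt-Co1, which holds the site where oxygen is reduced, overlapped between AKP and Ptch, with 32460.2, 27778 and 28180.0 CPM in AKP 1 to 3, 33293, 32157 and 29489.6 CPM in NKP 1 to 3, and 21389, 21553, 28403 and 28865 CPM in Ptch 1 to 4 (0.23, adjusted p = 0.376). mt-Cytb had 11169, 9363 and 9187 CPM in AKP 1 to 3, 11688, 9931 and 8954 CPM in NKP 1 to 3, and 6849, 7441, 8758 and 8774 CPM in Ptch 1 to 4 (0.32, adjusted p = 0.191). Ptch 1 and Ptch 2 were thus the lowest libraries for these 5 genes and are the pair labelled 4 months of age in that group. They were also the libraries with the lowest Y-linked level (0.385 and 0.465 CPM) and with the highest Mki67, and these differences cannot be told apart from age. With the length and GC trends removed, the log2 differences of mt-Cytb, mt-Co1 and mt-Atp6 in AKP against Ptch were -0.08, -0.06 and -0.0012. Those of mt-Co2, mt-Co3 and mt-Atp8 were 0.0054, 0.15 and -0.42.

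**Figure D4:**
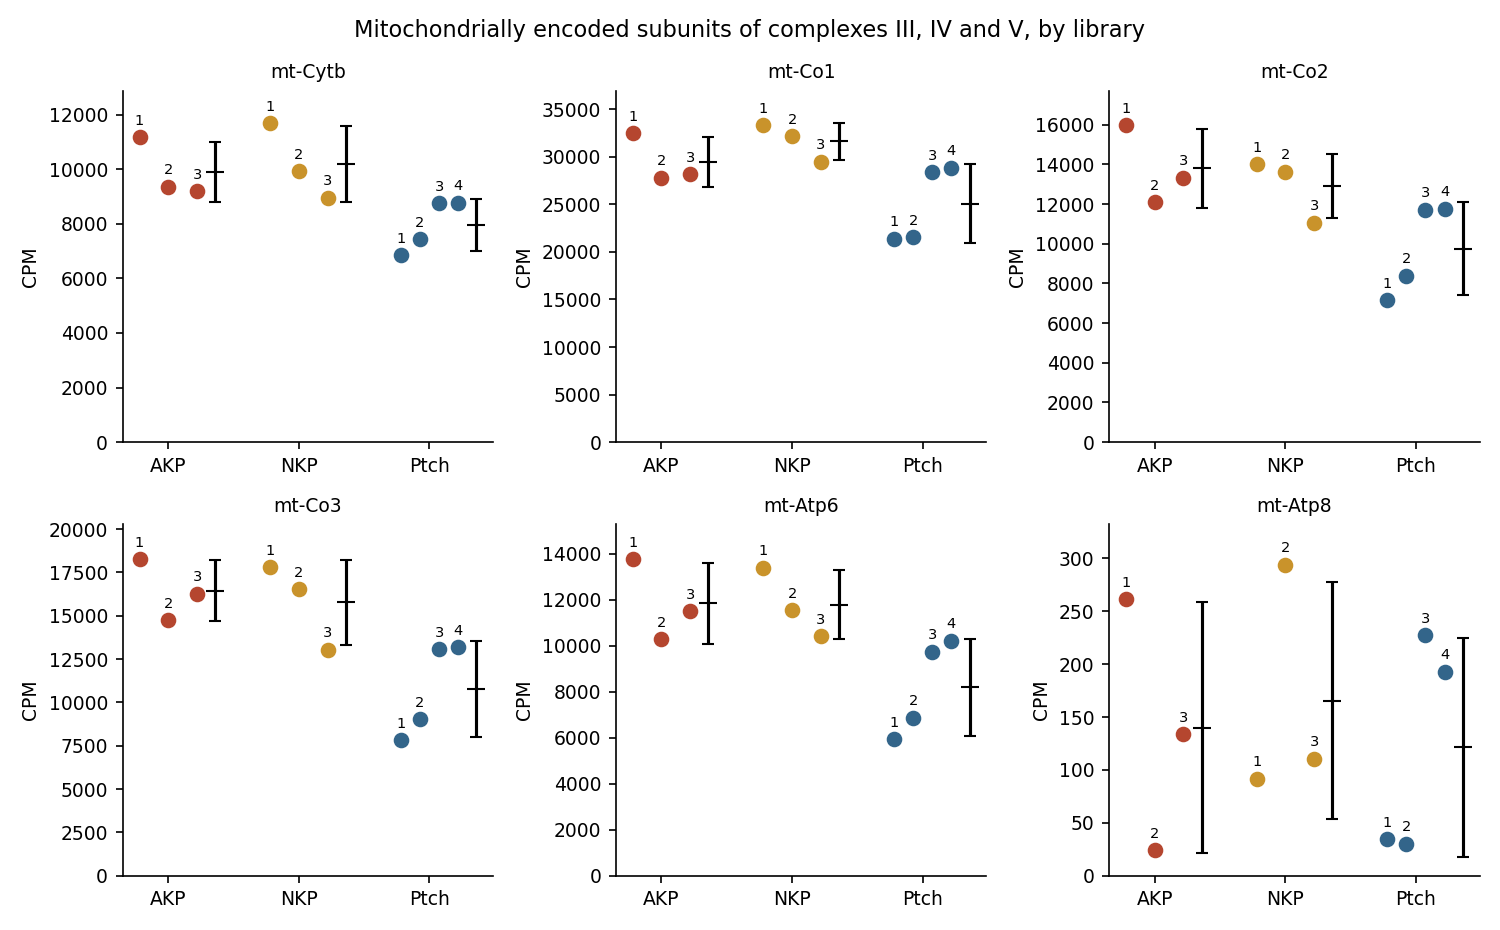
CPM of the 6 mitochondrially encoded subunit genes, one numbered point per library with the group mean and SD beside it (n = 3 AKP, 3 NKP, 4 Ptch). Ptch 1 and Ptch 2 are the lowest points for mt-Cytb, mt-Co1, mt-Co2, mt-Co3 and mt-Atp6, and mt-Atp8 spreads widely in every group.

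mt-Atp8, a small membrane subunit of complex V, behaved unlike the other 5. It had 261, 24.2 and 134 CPM in AKP 1 to 3, 91.5, 294 and 111 CPM in NKP 1 to 3, and 34.6, 30.2, 228 and 193 CPM in Ptch 1 to 4. The groups overlapped throughout, and no difference was detectable (0.20 in AKP against Ptch, SE 1.01, adjusted p = 0.931). Its reading frame of 204 nt shares 43 nt with mt-Atp6, with which it is transcribed as 1 RNA. Its count nevertheless varied from 0.235% of that of mt-Atp6 in AKP 2 to 2.55% in NKP 2, and reads of the shared RNA cannot be assigned to either gene with certainty.

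In NKP against Ptch, which shares the Ptch libraries with the comparison above, edgeR called 0 of 53 subunit genes and 0 of all genes (0%), with 28 subunit genes and 2660 genes in all at an unadjusted p below 0.05. DESeq2 called 1 subunit gene, Cox7b, and 406 genes in all. The log2 fold change was above 0 in 52 of 53, Atp5g2 (-0.09) being the other, with a median of 0.29 against 0.01 over all genes tested. For 17 of 54 genes all NKP libraries lay above all Ptch libraries, beside 6.96% of all genes tested, and for 0 they lay below, beside 8.95%. Uqcrq, Cox7b, Cox6c, Atp5l, Cox6a1, Atp5g3 and Sdhc were among these 17. The smallest adjusted p was 0.218, reached by Cox7b (0.41), Cycs (0.44), Uqcr10 (0.41), Cox6c (0.38), Atp5l (0.36), Uqcrb (0.35) and Uqcrq (0.34). By complex the medians were 0.20 in complex II, 0.27 in complex III, 0.32 in complex IV and 0.27 in complex V, and 0.42 over the 6 mitochondrially encoded genes. Without NKP 1 the median was 0.13 over the 54 genes then tested. With the length and GC trends removed, the median was 0.21, with 52 of 53 genes above 0. Of the subunit genes 0 passed there, and of all genes 0. The correction by principal transcript gave 0.20, also with 52 of 53 above 0. In AKP against Ptch the same corrections gave medians of 0.18 and 0.19, with 43 and 44 of 53 above 0. In libraries of 4 months alone (NKP 1 to 3 against Ptch 1 and Ptch 2), 10 of 54 subunit genes passed, all higher, beside 15.6% of all genes called in either direction, and with age as a covariate 5 of 53 passed, beside 5.97%. The 10 of the age-matched libraries made up a share near that of all genes called in either direction there. They were mt-Cytb, mt-Co1, mt-Co2, mt-Co3, mt-Atp6, Cycs, Cox6c, Cox7b, Cox8b and Uqcrb.

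In AKP against NKP, edgeR called 0 of 53 subunit genes and 1 gene in all, which was lower (0.0064%). At an unadjusted p below 0.05 in edgeR there were 23 subunit genes, beside 2633 of all 15617 genes tested. DESeq2 called Atp5e alone among the subunit genes, beside 230 genes in all (1.47%). The median log2 fold change was 0.23, with 46 of 53 above 0. All AKP libraries lay above all NKP libraries for 4 of 54 genes, a share near the 6.69% of all genes tested. The 4 were Sdhb, Cox4i1, Cox5a and Atp5md. For 0 genes the AKP libraries lay below, beside 9.52%. The 47 tested nuclear genes had a median of 0.26 and the mitochondrially encoded genes one of -0.02. Atp5e (0.51, SE 0.144), Atp5md (0.46, SE 0.138) and Cox5a (0.36, SE 0.112) each had an adjusted p of 0.228. AKP 1 and NKP 1 differed little from each other in the subunit genes, with nuclear sums of 18762 and 18876 CPM. With the length and GC trends removed the median was 0.00. Without AKP 1 the count of called subunit genes was 4 of 54, beside 8.49% of all genes called in either direction (0 in the other 9 fits with 1 library left out).

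Other genes of the pathway were counted from lists, beside 3.38% of all genes tested that rose in AKP against Ptch. In AKP against Ptch, 29 of 37 nuclear complex I genes rose (median log2 fold change 0.53; Ndufb5, an accessory subunit, 0.59) and 1 of 7 mitochondrially encoded complex I genes did (median 0.22). Of 35 tested assembly factors of complexes II to V, 8 rose (median 0.33), led by Coa6, a factor for the copper site of complex IV, with 31.3, 34.3 and 29.0 CPM in AKP 1 to 3, 25.8, 23.9 and 24.7 CPM in NKP 1 to 3, and 20.2, 20.3, 20.7 and 21.6 CPM in Ptch 1 to 4 (0.61, SE 0.0962, adjusted p = 0.0209). Of 4 further complex IV and V genes outside the symbol rule, 3 rose (median 0.42). Ndufa4, a subunit found in complex IV despite its name, had 599.9, 648 and 579 CPM in AKP 1 to 3, 596, 478 and 423 CPM in NKP 1 to 3, and 381, 373, 415 and 409 CPM in Ptch 1 to 4 (0.63, adjusted p = 0.0209). The enzymes of the TCA cycle, which supply the chain, had 1 of 16 higher, Suclg1 (0.36, adjusted p = 0.0431), at a median of 0.15, a share near that of all genes. Of 20 other mitochondrial genes 4 rose, led by the chaperonin gene Hspe1 (0.58, adjusted p = 0.0259), at a median of 0.23. Among 13 regulators of mitochondrial biogenesis, 0 passed in AKP against Ptch by edgeR or DESeq2 (median -0.06). In edgeR 4 of them had an unadjusted p below 0.05, near the share of all genes (3916 of 15617), and Esrra had the smallest p (0.26, adjusted p = 0.107). Ppargc1a, a coactivator of mitochondrial biogenesis, had 24.5, 20.7 and 22.1 CPM in AKP 1 to 3, 25.7, 30.2 and 23.2 CPM in NKP 1 to 3, and 14.8, 18.0, 22.7 and 25.5 CPM in Ptch 1 to 4, with overlapping groups (0.15 in AKP against Ptch, adjusted p = 0.636). Of 78 tested cytosolic ribosomal protein genes, which are also short, 7 rose in AKP against Ptch, led by Rpl38 (0.65, adjusted p = 0.0258), at a median of 0.36, and DESeq2 called 32. In NKP against Ptch their median was -0.19 with 0 called by edgeR or DESeq2. In edgeR 3 had an unadjusted p below 0.05 there, beside 2660 of all 15617 genes. In AKP against NKP all 78 were above 0 (median 0.58), with 0 called by edgeR and 50 by DESeq2. In edgeR 76 had an unadjusted p below 0.05, beside 2633 of all 15617 genes. DESeq2 called 35 of the 37 nuclear complex I genes, 14 of the assembly factors, 3 of the TCA cycle genes and 10 of the other mitochondrial genes higher in AKP against Ptch. Over all genes DESeq2 called 12.4% in AKP against Ptch and 1.47% in AKP against NKP, in either direction. With the length and GC trends removed, 1 of the 37 nuclear complex I genes was still called (median 0.21), and 0 of the other lists' genes named here, at medians of 0.13 for the assembly factors, 0.09 for the TCA cycle and 0.09 for the ribosomal proteins.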

How the data were processed

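Per the labels' protocols, poly-A RNA was prepared with a TruSeq RNA kit, which is not strand-specific. The submitters' processing notes name Trim Galore, STAR, RSEM and GRCm38, and give no versions. The deposited values were taken as RSEM expected counts rounded by the authors, since all are whole numbers. RSEM divides reads between near-identical copies by estimation.

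Genes passing edgeR's filterByExpr (15617) were scaled by TMM and fitted with edgeR 4.0.16 in R 4.3.3 (quasi-likelihood F test), in 1 fit of all 10 libraries without covariates. Genes were called at a Benjamini-Hochberg adjusted p below 0.05 over all genes tested. Of the 54 subunit genes, 53 passed the filter. CPM is scaled by TMM, and each log2 fold change has an SE derived from its F statistic. The fit was tested on simulated data. Coordinates are from RefSeq GRCm38.p6 and transcript lengths from GENCODE vM21. The length and GC alternative removed each library's lowess trends (span 0.3, prior count 1) for the 96.8% of tested genes with both values.

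The genes, lists and the rule for naming them were chosen with earlier results of these data known. Every subunit gene could be named. All values were given for the 2 of each complex with the smallest p in AKP against Ptch. The same held for the 1 with the smallest p in NKP against Ptch and for the mitochondrially encoded genes. In the isoform groups, Cox4i1, Cox7a1, Cox7a2l, Cox8a, Atp5g1, Atp5g2 and Atp5g3 had all values given. The others had a range, a maximum or a fold change alone. Sdha, Cycs, Atp5e and Atp5b had all values given outside this rule. Other genes named were label checks, Ppargc1a, 2 motif factors chosen after their values were seen, and the gene of smallest p in each pathway list. Alternatives numbered 26, of which the fit without Ptch 1 and Ptch 2 and the correction by principal transcript were chosen after seeing the data. DESeq2 1.42.0 was one. Replicate numbers do not pair the libraries.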

Additional observations from a re-analysis of the deposited data

How the results depend on the processing

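The direction of the AKP against Ptch difference held more widely than its calls. The count of 32 called subunit genes was 28 to 37 with RLE or upper quartile scaling, without mitochondrial genes in the totals, with other filters, with age as a covariate and in a fit of only these 2 groups. These counts stood beside 4.08% to 7.87% of all genes called in either direction. DESeq2 gave 42, beside 12.4% of all genes. The count was 18 with sex label as a covariate, beside 1.48% of all genes. It was 0 in age-matched libraries, with the replicate block, with the length and GC correction (median log2 fold change 0.18), with both together (0.21), with the correction by principal transcript (0.19), without libraries against their sex label and without Ptch 1 and Ptch 2. Of all genes, 14 passed with the length and GC correction, 5 with the correction by principal transcript and 0 in the other fits just named. Leaving out 1 library gave 0 to 38 calls, beside 0% to 9.08% of all genes, with medians of 0.46 to 0.54. In NKP against Ptch the count of 0 was 1 with DESeq2, beside 2.6% of all genes called in either direction. Age-matched libraries gave 10, beside 15.6% of all genes, and the age covariate gave 5, beside 5.97%. Calls thus rose over all genes in these fits, not in the subunit genes alone. With 1 library left out the count in NKP against Ptch was 0 to 0, with medians of 0.13 to 0.38. In AKP against NKP the count of 0 was 1 with DESeq2, beside 1.47% of all genes, and 0 to 4 with 1 library left out, with medians of 0.15 to 0.37. The 4 were called without AKP 1, where 8.49% of all genes were called. The median was 0.0013 with the length and GC correction, 0.0017 with the replicate block added and -0.0128 with the correction by principal transcript. Replicate numbers did not pair the libraries, with correlations of same-numbered libraries from -0.335 to 0.341. The block alone gave medians of 0.53, 0.29 and 0.24 in AKP against Ptch, NKP against Ptch and AKP against NKP, with 0 called in each.

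Log2 fold changes that turned negative in AKP against Ptch are given for the length and GC correction, the same with the replicate block, and the correction by principal transcript, in that order. They were -0.14, -0.164 and -0.15 for Atp5g2, -0.156, -0.141 and -0.145 for Cox4i2, -0.0889, -0.0587 and -0.0795 for Cox8a, -0.0581, -0.0531 and -0.0261 for Uqcrb, -0.423, -0.0623 and -0.414 for mt-Atp8, -0.0645, -0.0063 and -0.0434 for mt-Co1, and -0.077, -0.0532 and -0.0673 for mt-Cytb. Without the block they were -0.0441 and -0.0303 for Cox6b2 and -0.0012 and -0.0044 for mt-Atp6, and Sdha was at -0.0032 with the first correction. In age-matched libraries Sdha was at -0.0169, mt-Atp8 at -0.563 and Ppargc1a at -0.0976, and without Ptch 1 and Ptch 2 they were at -0.0414, -0.584 and -0.0966. In NKP against Ptch without Ptch 1 and Ptch 2, Atp5g2 was at 0.0592 and mt-Atp8 at -0.35. With 1 library left out, Sdha ran from -0.0187 to 0.0626 and mt-Atp8 from -0.622 to 0.702 in AKP against Ptch, and in NKP against Ptch mt-Atp8 ran from -0.265 to 0.947, Atp5g2 from -0.253 to 0.0319, Atp5d from -0.0184 to 0.229, Atp5j from -0.0125 to 0.236 and Uqcr11 from -0.0426 to 0.279. The cause of these changes was not tested. Low counts limited Cox8b and Cox6a2 (at most 3.17 and 3.78 CPM), whose SEs in AKP against Ptch, 0.600 and 0.343, were the widest of the nuclear genes.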
